A study of Mus musculus with 30 samples.

Results

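The myogenic regulatory factors Myf5, Myod1, Myog and Myf6, the paired-box factor Pax7 and the basic helix-loop-helix factor Hes6 were followed in cultured mouse extraocular muscle at 0, 4, 12, 24 and 48 h. All probe sets whose only annotated gene symbol was one of these 6 were taken, out of 18194 genes named in this way on the arrays. They were 9 of 45265 probe sets, 7 of the A type and 2 of the B type. Extraocular muscle moves the eye, and total RNA of its cultures had been hybridised to Affymetrix arrays of both types, with 30 arrays and 3 for each type and time. The labels give the time and the muscle of every group, name no strain, age or treatment, and state neither what began at 0 h nor whether replicates came from separate cultures. A p-value here thus covers just the spread among these few arrays, which may be technical. The source name of B array replicate 1 at 0 h was leg muscle, against its title of extraocular muscle. It was kept under the title, and the B array values of the members and of Mef2d, Snai2, Nefl, Dcn and Pdgfra are also given without it.

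Skeletal muscle fibres form from precursor cells in a sequence that transcription factors direct. PAX7 marks the satellite cells, the stem cells of adult muscle, MYF5 and MYOD commit cells to the muscle lineage, and myogenin (MYOG) drives the terminal differentiation in which myoblasts leave the cell cycle and fuse. MYF6, also called MRF4, is the predominant factor of the family in mature fibres, and the 4 factors bind the E-box sequence as dimers with ubiquitous E-proteins. HES6 is a relative of the Notch effector HES1 that opposes HES1 and promotes muscle differentiation.

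Promoter sequence is shown for Myog and Hes6, whose intensities correlated over the 15 A arrays at r = 0.81 and 0.74. Myod1 and Hes6 correlated more closely (0.84 and 0.92), but no window of Myod1 was at hand. The relation of Myog and Hes6 within times, described further on, did not pass with 2 arrays left out. Whether the motifs bear on these correlations was not tested. Each line holds the 250 bases just upstream of a transcription start, from RefSeq on GRCm38.p6, read 5′ to 3′ on the strand of the gene, and capitals mark every match to the E-box CANNTG or to the MEF2 core CTANNNNTA, read on both strands (the E-box pattern is the same on either). MEF2 factors are the partners of the myogenic factors at many muscle promoters. Myog lies on the plus strand at chr1:134289754-134290003, and the Hes6 windows, which belong to different starts, on the minus strand at chr1:91414039-91414288 and chr1:91413223-91413472.
Myog: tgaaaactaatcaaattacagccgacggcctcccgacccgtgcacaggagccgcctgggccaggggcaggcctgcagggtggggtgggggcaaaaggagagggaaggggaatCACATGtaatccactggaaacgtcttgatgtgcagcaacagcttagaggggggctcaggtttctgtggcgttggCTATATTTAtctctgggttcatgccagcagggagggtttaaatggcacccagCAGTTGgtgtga
Hes6, first start: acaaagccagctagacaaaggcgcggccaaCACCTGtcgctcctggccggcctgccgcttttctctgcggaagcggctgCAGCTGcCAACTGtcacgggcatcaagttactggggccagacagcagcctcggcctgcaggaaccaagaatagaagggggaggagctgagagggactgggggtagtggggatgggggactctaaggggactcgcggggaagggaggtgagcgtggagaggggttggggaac
Hes6, second start: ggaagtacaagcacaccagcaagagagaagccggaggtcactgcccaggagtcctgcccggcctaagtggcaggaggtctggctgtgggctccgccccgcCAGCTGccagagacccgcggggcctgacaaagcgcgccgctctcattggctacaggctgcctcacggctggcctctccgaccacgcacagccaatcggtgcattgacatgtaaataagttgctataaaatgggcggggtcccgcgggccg
The Myog window held E-boxes beginning 138 bases (CACATG) and 12 bases (CAGTTG) before the start, with a MEF2 core, CTATATTTA, between them at 64 bases. The first Hes6 window held 3 E-boxes, beginning 220, 171 and 164 bases before the start, and the second 1, at 150 bases, while neither held a MEF2 core. No E-box overlapped a MEF2 core in these windows. Among all 32851 RefSeq windows of this length, 66.2% held at least 1 E-box, 31.8% at least 2 and 12.2% at least 3. A MEF2 core stood in 19.0% and both motifs in 13%. The matches are letters in a window and describe no binding in these cultures. Windows were at hand for 4 of the 6 genes, and not for Myod1 and Myf6. The Myf5 window, not shown, held no E-box and 2 overlapping MEF2 core matches, beginning 182 and 181 bases before the start. That of Pax7, also not shown, held neither motif. Myf5 and Myf6 are next to each other among the protein-coding genes of chromosome 10.

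The deposited intensities show that Myog and Myod1 gave bright signals on every A array, whereas Myf5 and Myf6 stayed dim. The Myog probe set 1419391_at had a mean over the 15 A arrays above that of 99.3% of A probe sets. For Myod1 1418420_at this share was 98.4%, and for the Hes6 probe sets 95.2% and 93.6%. Myf5 (26.8%) and Myf6 (11.0%) did not pass a filter that left out probe sets with a mean below the 40th percentile of their array type. The filter was passed by 7 of the 9 member probe sets. Signals of different probe sets are not comparable as levels, so these ranks describe the probe sets only. Other genes of the muscle lineage were bright too. Des, the muscle intermediate filament desmin, lay between 3269.6 and 5411.7 over the A arrays, Cdh15, the myoblast cadherin, between 1497.8 and 3258.8, and Itga7, a laminin receptor subunit of muscle, between 867.8 and 1453.6. The extraocular myosin gene Myh13 had no probe set named for it alone, so the labelled eye-muscle origin was not checked by it.

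**Figure D1:**
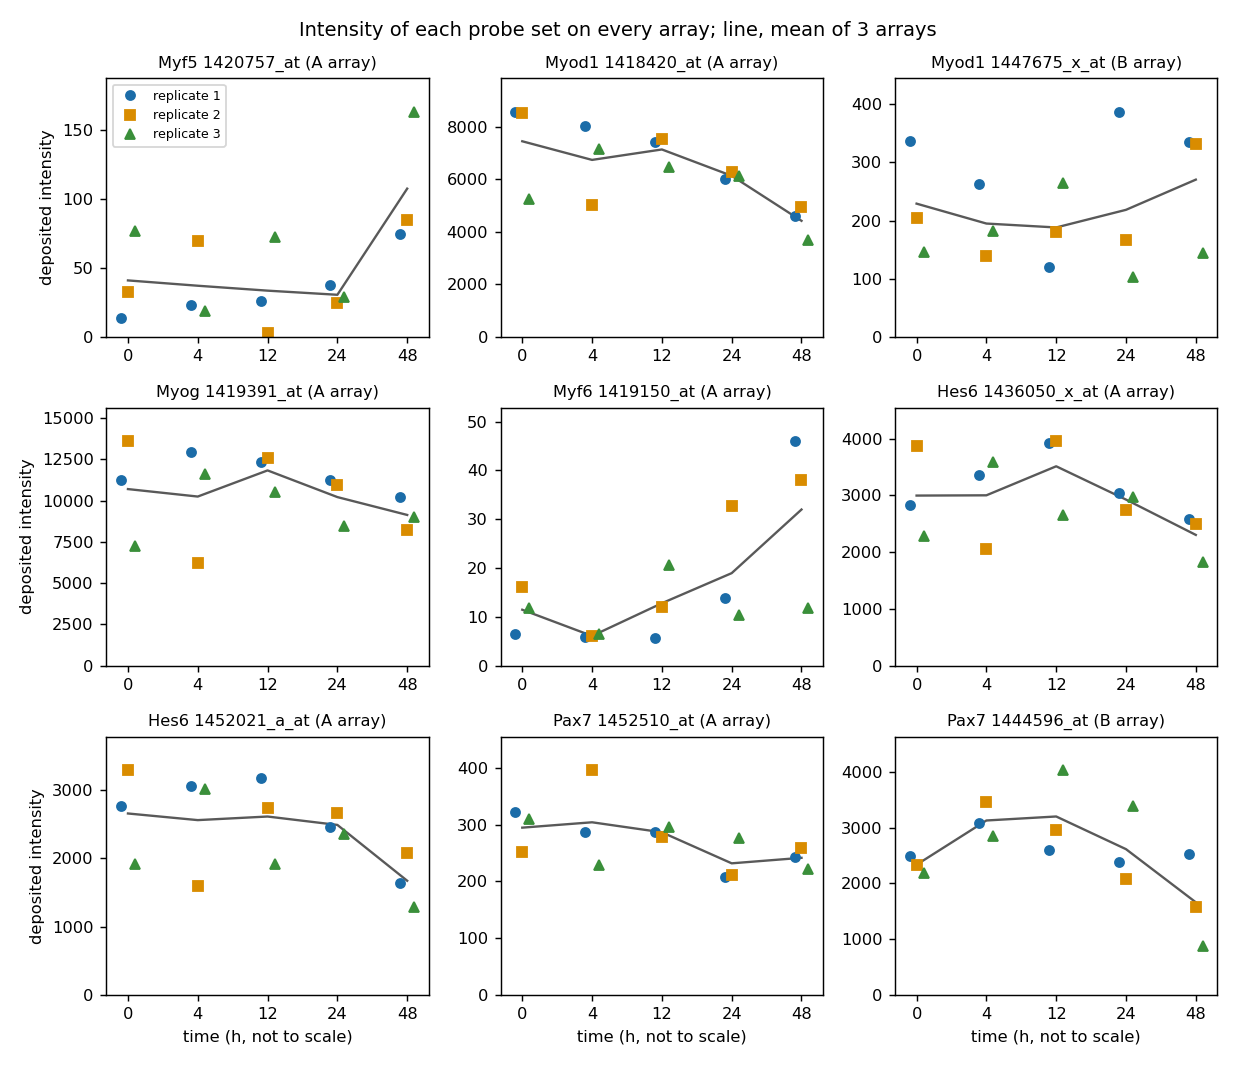
Deposited intensity (linear axis from 0) of the 9 member probe sets on every array at 0, 4, 12, 24 and 48 h; points are single arrays by replicate number and the line is the mean of 3 arrays. The Myod1 points of the A type at 48 h all lie below those at 0 h, and the Myog points of 48 h lie within the range of 0 h.

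Myf5, the earliest of the myogenic factors in the embryo, was dim at all times. Its A array intensities were 13.2, 32.2 and 77.0 at 0 h, 23.0, 69.2 and 18.6 at 4 h, 25.6, 2.5 and 72.0 at 12 h, 37.3, 24.7 and 29.1 at 24 h and 74.3, 85.0 and 163.0 at 48 h. The 48 h arrays lay above all 24 h arrays, and 1 of them lay within the range of 0 h. In the limma fit made without the filter, the log2 change at 48 h against 0 h was 1.21 ± 0.52 (SE, 95% interval 0.10 to 2.33), which did not pass (adjusted p = 0.282). Against 24 h it was 1.35 ± 0.52 (limma adjusted p = 0.436). All changes are on the scale of log2(intensity + 16), which understates those of dim probe sets. Because the arrays hold RNA of whole cultures, fewer cells of a type and less RNA per cell cannot be told apart in any of these values.

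Myod1, which can turn fibroblasts into muscle cells, was the only member with a change past the threshold, a fall at 48 h. On the A arrays its intensities were 8555.3, 8525.9 and 5251.0 at 0 h, 8044.2, 5026.2 and 7130.9 at 4 h, and 7410.9, 7539.7 and 6444.7 at 12 h. At 24 h they were 6001.6, 6258.6 and 6124.7, and at 48 h 4597.5, 4947.7 and 3692.9. All 48 h arrays lay below all arrays of every other time, and replicate 3 at 0 h and replicate 2 at 4 h were low for their times. The mean was 4412.7 ± 647.5 at 48 h against 7444.1 ± 1899.3 at 0 h (SD, n = 3 arrays each). The log2 change was -0.73 ± 0.18 (SE, 95% interval -1.12 to -0.34), 0.604 times the 0 h value (limma adjusted p = 0.0232). The call rested on the arrays at hand, since limma gave an adjusted p = 0.12 with 0 h replicate 1 left out and 0.0943 with 0 h replicate 2 left out. With 48 h replicate 1 or 3 left out it was 0.0566 or 0.107. Over all single arrays left out the log2 change stayed between -0.96 and -0.61.

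No fall of Myod1 passed the threshold before 48 h, although the 95% interval at 24 h, -0.63 to 0.14, includes a smaller one. Its changes against 0 h were -0.14 ± 0.18 at 4 h, -0.03 ± 0.18 at 12 h and -0.24 ± 0.18 at 24 h, with limma adjusted p = 0.974, 0.964 and 0.52. In order of its means the times stood as 0, 12, 4, 24 and 48 h. Of these neighbours, 24 h against 4 h was not tested and its ranges overlapped, and no tested neighbours differed past the threshold. All 24 h arrays lay below all 12 h arrays, with a log2 change of -0.21 ± 0.18 (limma adjusted p = 0.869). Between 24 and 48 h the values did not overlap either, with a log2 change at 48 h against 24 h of -0.48 ± 0.18 (limma adjusted p = 0.303). The F-test for any change over time gave an adjusted p = 0.0701 in limma.

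The B array probe set of Myod1, 1447675_x_at, gave dim and scattered values. They were 337.6, 204.0 and 145.7 at 0 h, 262.7, 139.5 and 182.2 at 4 h, 120.2, 180.0 and 263.9 at 12 h, 386.8, 165.6 and 102.9 at 24 h and 335.8, 331.5 and 144.1 at 48 h. All the times overlapped. Its log2 change at 48 h against 0 h was 0.21 ± 0.50, and the interval of -0.86 to 1.29 includes the change measured on the A arrays (limma adjusted p = 0.948). Without the B array with the leg muscle source name it was 0.51 (adjusted p = 0.848). The _x_at ending marks Affymetrix probe sets with probes that can bind other transcripts.

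Myog, the gene of the differentiation factor myogenin, did not pass in any comparison. Its intensities were 11258.8, 13593.8 and 7231.2 at 0 h, 12920.7, 6218.9 and 11586.7 at 4 h, and 12355.7, 12603.4 and 10516.1 at 12 h. At 24 h they were 11255.6, 10912.9 and 8461.1, and at 48 h 10185.1, 8217.1 and 8983.1. The spread within 0 h and within 4 h was wider than any distance between the means of the times. The means were 10694.6 ± 3218.6 at 0 h, 10242.1 ± 3547.5 at 4 h, 11825.1 ± 1140.3 at 12 h, 10209.9 ± 1524.1 at 24 h and 9128.4 ± 992.0 at 48 h (SD, n = 3 arrays each). The log2 change at 48 h against 0 h was -0.19 ± 0.24 (95% interval -0.68 to 0.31, limma adjusted p = 0.719). At 12 h against 0 h it was 0.19 ± 0.24 (interval -0.31 to 0.68, adjusted p = 0.788). These intervals bound what the arrays can say of Myog and do not show that its level was constant.

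Myf6, the factor of mature fibres, had intensities of 6.5, 16.1 and 11.8 at 0 h, 5.8, 6.1 and 6.4 at 4 h, 5.7, 12.1 and 20.6 at 12 h, 13.9, 32.7 and 10.3 at 24 h and 46.0, 38.1 and 11.9 at 48 h. The 2 highest arrays belonged to 48 h, where 1 of 3 lay within the range of 0 h. In the fit without the filter its log2 change at 48 h against 0 h was 0.74 ± 0.31 (95% interval 0.08 to 1.40, limma adjusted p = 0.265). Its values are close to the pseudocount of 16 and the deposited files give no detection call.

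Hes6 was measured by 2 A array probe sets. For 1452021_a_at the intensities were 2761.8, 3290.2 and 1919.7 at 0 h, 3062.6, 1596.4 and 3021.0 at 4 h, 3172.0, 2742.3 and 1923.6 at 12 h, 2457.7, 2658.4 and 2352.6 at 24 h and 1645.6, 2082.7 and 1286.1 at 48 h. The 48 h arrays lay below all 24 h arrays but overlapped those of 0 h. The mean was 1671.5 ± 398.9 at 48 h against 2657.2 ± 691.2 at 0 h (SD, n = 3 arrays each), a log2 change of -0.66 ± 0.25 that did not pass (95% interval -1.19 to -0.13, limma adjusted p = 0.144). It passed in limma with weights for arrays (adjusted p = 0.0164) and with a covariate for the arrays' main shared deviation (adjusted p = 0.0183), alternatives chosen after the data were seen. The covariate was taken from the deviations of these same arrays within times. It could therefore not move a log2 change and acted only on the error of the fit.

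For 1436050_x_at of Hes6 the intensities were 2835.1, 3876.1 and 2278.9 at 0 h, 3351.7, 2063.0 and 3589.1 at 4 h, 3920.1, 3954.5 and 2663.2 at 12 h, 3048.4, 2750.0 and 2979.8 at 24 h and 2591.4, 2497.3 and 1822.7 at 48 h. Again the 48 h arrays lay below those of 24 h and overlapped those of 0 h. The log2 change at 48 h against 0 h was -0.36 ± 0.22 (95% interval -0.82 to 0.10, limma adjusted p = 0.393).

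Pax7, the satellite cell factor, had a probe set on each array type, and neither passed in any comparison. On the A arrays the intensities of 1452510_at were 322.3, 252.4 and 309.3 at 0 h, 287.8, 395.8 and 228.8 at 4 h, 286.4, 277.4 and 295.7 at 12 h, 208.2, 210.9 and 276.2 at 24 h and 243.7, 258.6 and 222.2 at 48 h. The 24 h arrays lay below all 12 h arrays, and the other neighbouring times overlapped. The log2 change was -0.33 ± 0.18 at 24 h against 0 h (limma adjusted p = 0.338) and -0.27 ± 0.18 at 48 h against 0 h (95% interval -0.65 to 0.12, adjusted p = 0.452).

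On the B arrays the intensities of Pax7 1444596_at were 2485.0, 2331.4 and 2189.3 at 0 h, 3077.9, 3464.0 and 2846.1 at 4 h, and 2606.9, 2966.5 and 4030.6 at 12 h. At 24 h they were 2378.9, 2072.4 and 3392.3, and at 48 h 2528.1, 1576.6 and 876.9. All arrays of 4 h and of 12 h lay above all of 0 h, and the 48 h arrays were spread from the lowest value of this probe set to above the 0 h range. The log2 changes against 0 h were 0.42 ± 0.28 at 4 h, 0.43 ± 0.28 at 12 h, 0.13 ± 0.28 at 24 h and -0.61 ± 0.28 at 48 h, with limma adjusted p = 0.996, 0.752, 0.932 and 0.475. At 48 h against 24 h the change was -0.75 ± 0.28 (limma adjusted p = 0.716), and the F-test gave an adjusted p = 0.291. Without the B array with the leg muscle source name the changes against 0 h were 0.46, 0.48, 0.18 and -0.57 at 4, 12, 24 and 48 h, and none passed.

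**Figure D2:**
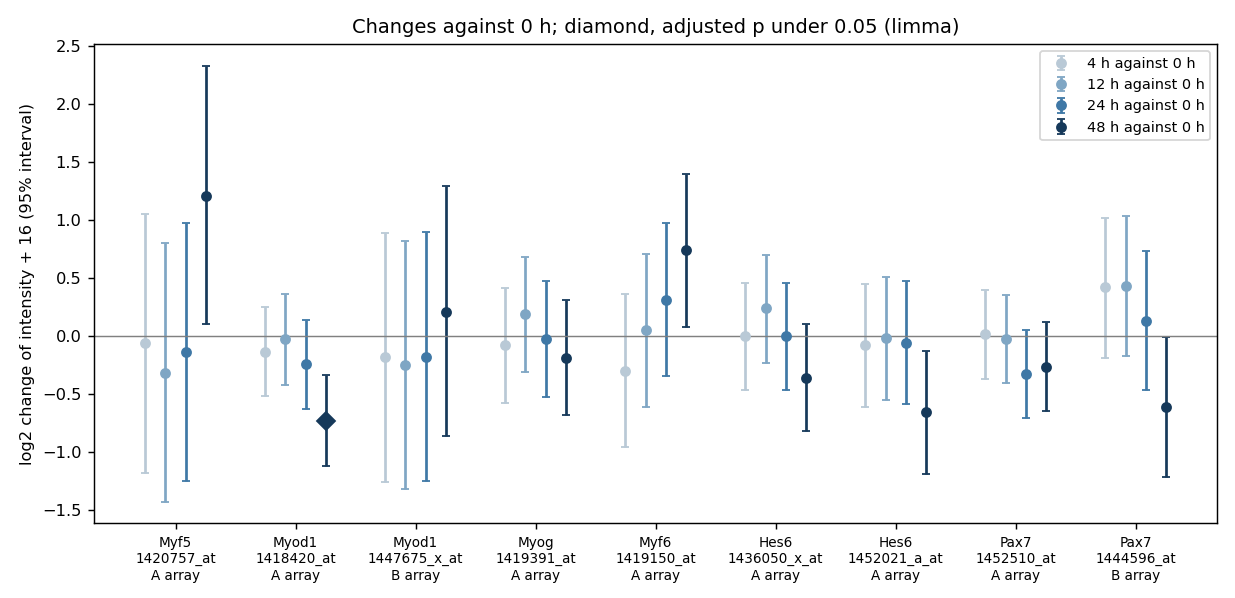
Log2 change of intensity plus 16 against 0 h for each member probe set at 4, 12, 24 and 48 h (vertical axis, points with 95% intervals; lighter to darker with time), with Myf5 and Myf6 from the fit without a filter; the diamond marks an adjusted p under 0.05 in limma. The diamond is Myod1 on the A arrays at 48 h, at -0.73.

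Across the 7 member probe sets that passed the filter, 1 was called at 48 h against 0 h, lower, where 1.35% of all probe sets tested were called lower and 2.47% higher. Of the 7, 6 had a negative change at 48 h and 3 an unadjusted p under 0.05, with a median of -0.36 beside 0.00 over all probe sets. Myod1, Hes6 and Pax7 have 2 of these probe sets each, so they are counted more than once. Outside the filter, Myf5 and Myf6 went up at 48 h, by 1.21 and 0.74 (limma unadjusted p = 0.0348 and 0.0304). The unadjusted counts here have no share over all probe sets beside them. No member was called at 4 h (0.0148% of all probe sets called in either direction), at 12 h (0.155% higher, 0.0665% lower) or at 24 h (1.96% higher, 1.31% lower). At those 3 times no member had an unadjusted p under 0.05 in limma. None was called at 12 h against 4 h (background 0.151%), at 24 h against 12 h (0.0443%) or at 48 h against 24 h (0.347%). Unadjusted, 3 members were under 0.05 in limma at 48 h against 24 h and 0 in the other steps. The F-test called 0 of 7, with 2 at an unadjusted p under 0.05, where it called 4.31% of all probe sets. The count at 48 h against 0 h was 0 without any 1 of the 4 arrays named above for Myod1, and 2 with array weights or the covariate.

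Whether the members changed unequally was asked within arrays, by the log2 ratio of a pair of A array probe sets on 6 late arrays (24 and 48 h) against 6 early ones (0 and 4 h). The log2 ratio of Myog to Myod1 was 0.40, 0.67 and 0.46 at 0 h, 0.68, 0.31 and 0.70 at 4 h, 0.74, 0.74 and 0.71 at 12 h, 0.91, 0.80 and 0.47 at 24 h and 1.14, 0.73 and 1.28 at 48 h. Late arrays had the highest ratios, and 24 h replicate 3 fell among the early ones. The mean was 0.89 ± 0.29 on late arrays against 0.54 ± 0.17 on early ones (SD, n = 6 each), a shift of 0.35 towards Myog (exact two-sided permutation test over 924 arrangements, p = 0.0281, adjusted over 15 pairs p = 0.0844). The ratio's own height has no meaning, since it sets different probe sets against each other, and only its shift does.

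The Hes6 to Myod1 ratio also shifted upward, to -1.0 ± 0.12 on late arrays against -1.24 ± 0.20 on early ones (exact permutation p = 0.0238, adjusted p = 0.0844), whereas Myog to Hes6 moved by 0.11 (exact permutation p = 0.407). The sizes of the Myf6 shifts depend on the pseudocount, since Myf6 lies near it, and over the alternatives they ran between 0.70 and 1.73 relative to Myod1 and between 0.55 and 1.63 relative to Pax7 (exact permutation p = 0.0108 and adjusted p = 0.0812 each at the pseudocount of 16). In all, 6 of 15 pairs were under 0.05 unadjusted and 0 after adjustment. Each of those 6 holds Myf6 or Myod1, and the pairs share probe sets, so they are not 6 separate differences. Without 24 h replicate 3, 4 pairs passed: Myog to Myod1 (0.44, exact permutation adjusted p = 0.0325), Myf6 to Myod1 (1.26), Myf6 to Pax7 (1.14) and Hes6 to Myf6 (-1.01). Of these 4 pairs, 3 hold the dim Myf6. That array was left out as 1 of 12 such runs, and no other run passed a pair.

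**Figure D3:**
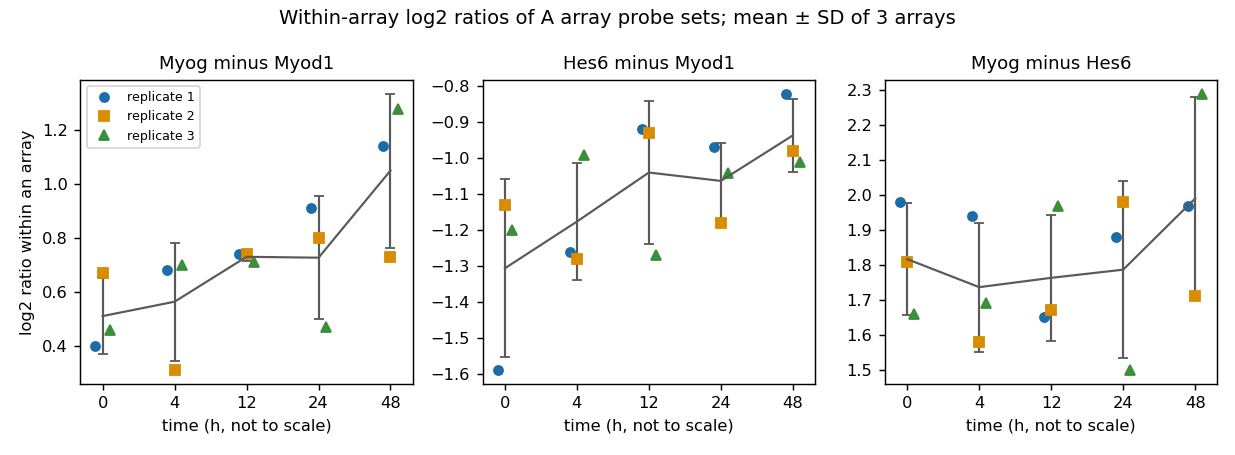
Log2 ratio within each A array (vertical axis, not starting at 0) of Myog to Myod1, Hes6 to Myod1 and Myog to Hes6 at 0, 4, 12, 24 and 48 h; points are arrays, the line joins means of 3 arrays and bars are SD. The ratio of Myog to Myod1 reaches 1.28 at 48 h, and 24 h replicate 3 lies low at 0.47.

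Arrays of the same time differed from each other in several members at once. The Myog deviation from the mean of its time was lowest on 4 h replicate 2 (-0.65) and 0 h replicate 3 (-0.52), and highest on 4 h replicate 1 (0.40) and 0 h replicate 2 (0.39). Over 15 A arrays these deviations correlated with those of Myod1 at Pearson r = 0.83 and Spearman rho = 0.74 (exact permutation within times, 7776 arrangements, p = 0.0316 and 0.0404, adjusted over 6 relations p = 0.0496 and 0.0531). For Hes6 the correlations were r = 0.79 and rho = 0.80 with 1436050_x_at (exact permutation adjusted p = 0.0496 and 0.0255), and r = 0.79 and rho = 0.64 with 1452021_a_at (adjusted p = 0.0496 and 0.0531). Pax7 (r = -0.76, rho = -0.69, exact permutation adjusted p = 0.0586 and 0.0531) and Myf5 (r = -0.62, rho = -0.62, adjusted p = 0.0496 and 0.0531) ran the other way, and Myf6 had r = 0.09 and rho = 0.09 (adjusted p = 0.662 and 0.741).

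These relations rested on the arrays 4 h replicate 2 and 0 h replicate 3. Without those 2 arrays r was 0.58 for Myod1, 0.61 and 0.56 for the Hes6 probe sets, -0.66 for Pax7 and -0.39 for Myf5, and no relation passed (lowest exact permutation adjusted p = 0.274). The deviations used for this were still those from the means of all 3 arrays of a time. The 2 arrays left out thus still shifted the values of the other 0 h and 4 h arrays. These r and p are therefore not those of data free of the 2 arrays. The deviations of all tested A probe sets shared a main pattern that held 26.5% of them, and the members correlated with it at r = -0.66 for Myog, -0.79 for Myod1, -0.88 and -0.79 for Hes6, 0.82 for Myf5, 0.39 for Pax7 and 0.07 for Myf6. These are descriptions over the same 15 arrays. Summed smooth muscle and pericyte markers, dominated by Acta2, deviated with Myog too (r = 0.83, rho = 0.71, exact permutation adjusted over 7 marker lists p = 0.201 and 0.276). The other 6 lists had an r between -0.40 and 0.30. What made arrays of a time differ was not tested, and the comparison of deviations was chosen after the data were seen.

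**Figure D4:**
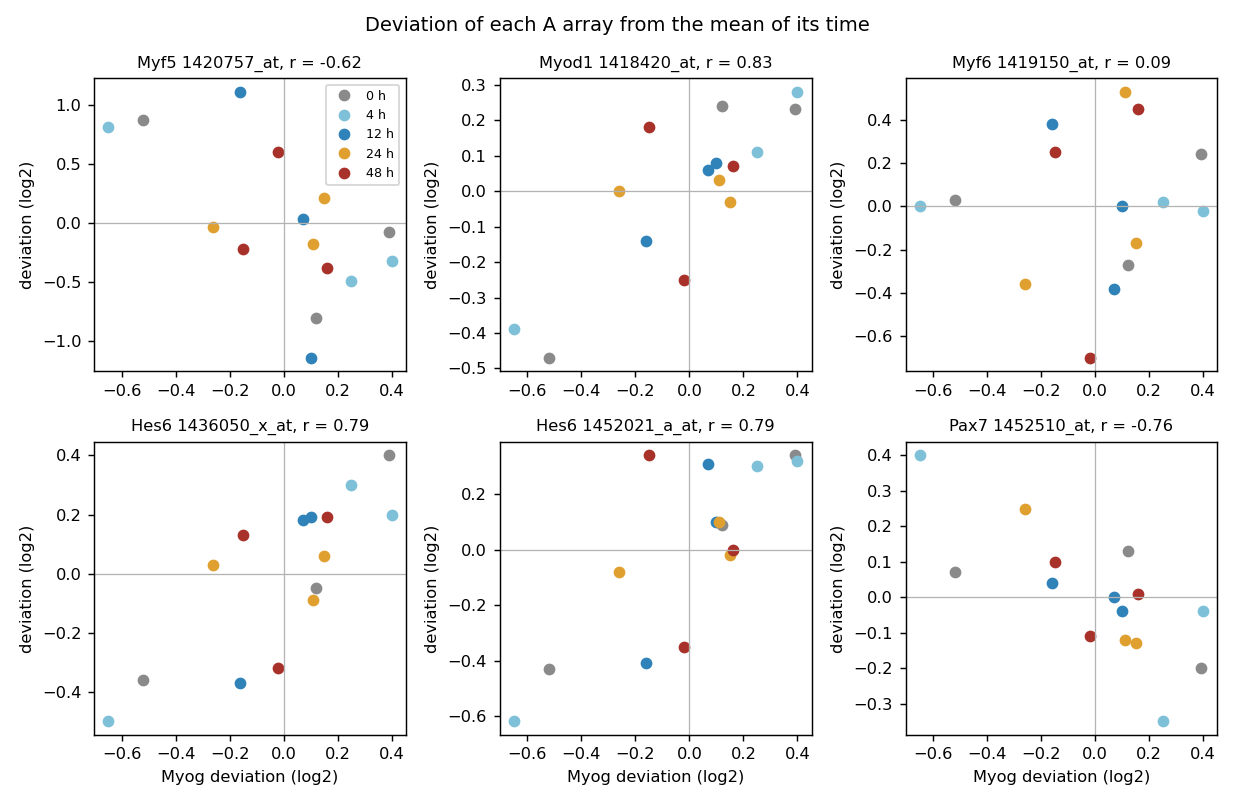
Deviation of each A array from the mean of its time on the log2 scale, Myog (horizontal) against the other A array member probe sets (vertical), coloured by time; r is Pearson's over 15 arrays. The arrays at the far left, 4 h replicate 2 and 0 h replicate 3, are low in Myog, Myod1 and Hes6 and above 0 for Pax7 and Myf5.

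By likeness over the 15 A arrays, measured as Pearson r of log2 intensities among 12525 probe sets with 1 symbol, the nearest to Myog were Chrna1 (0.86), Lrrn1 (0.86), Chrnd (0.85) and Cnn3 (0.85). Chrna1 and Chrnd encode subunits of the muscle acetylcholine receptor. Nearest to Myod1 were Ilkap, Aldh2, Krt10 and Olfm1, all at 0.93, and nearest to Hes6 were Smarcd3, Sun1, Ctf1 and Olfml2b, all at 0.92. For Pax7 they were Ddx41 (0.90), Gmnn (0.87), Rfc4 (0.85) and Fbxo33 (0.82). The dim Myf5 was nearest to Snhg1 (0.94) and Cxadr (0.92), and Myf6 to Ubox5 (0.86). All these values share the arrays and the times and carry no test.

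Among the partners of the myogenic factors no E-protein and 1 MEF2 factor passed. These lists and those below were chosen with earlier results of these data known, so their counts are descriptions. Over all probe sets tested, 1.96% were called higher and 1.31% lower at 24 h against 0 h. At 48 h these shares were 2.47% and 1.35%. The E-proteins, with which the factors form DNA-binding dimers, had 0 of 3 called at any time in limma, and 1 of them an unadjusted p under 0.05 at 4 h. At 48 h against 0 h the log2 changes were -0.16 for Tcf3, 0.01 for Tcf4 and 0.05 for Tcf12 (limma adjusted p = 0.524, 0.982 and 0.918). Of the MEF2 factors 3 of 4 were tested and Mef2c rose at 48 h, to 3152.6 ± 314.3 against 1884.1 ± 430.7 at 0 h (SD, n = 3 arrays each; log2 change 0.76 ± 0.21, limma adjusted p = 0.0372). All 4 other tested Mef2c probe sets also passed there, with changes from 0.89 to 1.09. The call of the brightest probe set was lost without 0 h replicate 1 or 3 or any 48 h array, and also with no filter, no trend or median scaling (adjusted p up to 0.132 over the alternatives). Mef2a (-0.13, adjusted p = 0.858) and Mef2d on the B arrays (0.83, adjusted p = 0.481; 1.06 and 0.432 without the leg muscle array) did not pass.

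The inhibitors of the myogenic factors moved in both directions. Of 17, 14 were tested, and at 24 h 2 were higher and 3 lower than at 0 h, at 48 h 3 higher and 4 lower, with medians of -0.21 and 0.01. Id1, Id2 and Id3, whose proteins hold E-proteins in dimers that cannot bind DNA, were the 3 lower at 24 h and 3 of the 4 lower at 48 h, whereas Id4 (-0.23 at 48 h, limma adjusted p = 0.824) did not pass. Id3 averaged 879.8 ± 230.5 at 48 h against 4067.7 ± 129.5 at 0 h (SD, n = 3 arrays each), a log2 change of -2.22 ± 0.17 (limma adjusted p = 5.93e-07). Id2 changed by -2.50 ± 0.25 and Id1 by -1.42 ± 0.17, and all 3 kept their calls at 24 and 48 h in all 26 other settings and runs without an array. The Notch effector Hey1 fell by 1.79 at 48 h on the log2 scale, a call lost without 0 h replicate 1 (limma adjusted p = 0.0783). Bhlhe40, a basic helix-loop-helix repressor, rose to 513.1 ± 99.9 at 48 h against 159.1 ± 48.0 at 0 h (1.61 ± 0.30, limma adjusted p = 0.00264). Snai2 on the B arrays (2.92) and Mdfic (0.62) rose at 48 h too, and the A array probe set of Snai2 rose by 2.03. Without the B array with the leg muscle source name the Snai2 change on the B arrays was 2.55 (limma adjusted p = 0.0354). The Mdfic call was lost without 0 h replicate 2 or 48 h replicates 1 or 3, with median scaling and in a fit of these times alone. The higher calls at 24 h, Bhlhe40 and Hes1, were both lost without 0 h replicates 2 or 3, without 24 h replicates 1 or 2 and without 48 h replicates 1 or 2, and also with no filter, no trend, the replicate block, median scaling or quantile normalization. Hey1, Snai2, Mdfic and Hes1 were named after their values were seen.

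Several early targets of the myogenic factors were higher than at 0 h. All 30 on the list were tested, 25 had positive changes at 12 h, 28 at 24 h and 20 at 48 h, and the medians were 0.43, 0.41 and 0.19 beside 0.00, -0.01 and 0.00 over all probe sets. This list too was chosen with earlier results of these data known. The positive counts have no share over all probe sets beside them, while 1.96% of all were called higher at 24 h and 2.47% at 48 h. At 24 h 6 rose and none fell, Mybph, Casq2, Cav3, Myl4, Myh3 and Tnnt2, and at 48 h 4 rose, the same without Myh3 and Tnnt2. The 24 h call was lost in 14 of 26 alternatives for Myl4 and in 7 for Tnnt2. A second Myl4 probe set did not pass at 24 h (0.87, limma adjusted p = 0.0923) or 48 h (0.97, adjusted p = 0.0529). For Tnnt2 at 24 h, another A array probe set passed (0.78). Its B array probe set, with the leg muscle array kept, did not (0.28, limma adjusted p = 0.882). Mybph, a myosin-binding protein, averaged 7852.5 ± 2091.6 at 24 h against 3568.6 ± 530.0 at 0 h (SD, n = 3 arrays each), a log2 change of 1.11 ± 0.19 (limma adjusted p = 0.00211). At 48 h the changes were 1.05 ± 0.19 for Mybph, 1.14 ± 0.23 for the calcium buffer Casq2, 1.26 ± 0.29 for the membrane protein Cav3 and 0.76 ± 0.16 for the light chain Myl4. The count at 24 h was 2 without 0 h replicate 1 or 24 h replicate 1, 3 without 24 h replicate 2, and 10 with the covariate. At 48 h it was 7 with quantile normalization, and with array weights 7 were higher and 3 lower. The Cav3 call at 48 h was lost without 0 h replicate 1 or 48 h replicate 1 (limma adjusted p up to 0.0718). Myh3 and Tnnt2 were named after their values were seen.

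Other genes of satellite cells and myoblasts, beside Pax7, also divided. Of 20, 17 were tested, and 4 were higher and 3 lower both at 24 h and at 48 h. Cxcr4, a chemokine receptor of migrating precursors, fell to 201.8 ± 77.0 at 48 h against 806.8 ± 134.3 at 0 h (-1.98 ± 0.24, limma adjusted p = 6.82e-05). Sdc3 (-0.73 ± 0.14) and Peg3 (-1.0) were the others that fell at 48 h, although a second Sdc3 probe set had a change of -0.20 and did not pass. Cav1 rose to 3408.9 ± 145.8 at 48 h against 1193.6 ± 283.3 at 0 h (1.53 ± 0.16, limma adjusted p = 1.68e-05), and Spry1, a feedback inhibitor of growth factor signalling linked to satellite cell quiescence, rose by 1.09 ± 0.22. Notch3 (0.58) and Ncam1 (0.88) also rose at 48 h, and of the 4 other tested Ncam1 probe sets none passed and 3 had negative changes. The Notch3 call at 48 h was lost in 14 of 26 alternatives, 9 of them with 1 array left out (limma adjusted p up to 0.196), and a second Notch3 probe set (0.43, adjusted p = 0.537) did not pass. Peg3 and Ncam1 were named after their values were seen.

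Upstream and head muscle regulators had 1 of 9 tested called at 48 h. It was Pitx3, a homeobox gene of eye lens and muscle, at 395.5 ± 68.8 at 48 h against 600.0 ± 61.2 at 0 h (-0.59 ± 0.14, limma adjusted p = 0.0157). The call was lost without 0 h replicates 1 or 3 or 48 h replicates 1 or 3 and in a fit of these times alone (adjusted p up to 0.0807 over the alternatives). Among 14 chromatin coregulators Ezh2, named after its values were seen, was lower at 24 h (-0.66 ± 0.18, limma adjusted p = 0.0405), and the count of 1 became 0 in 8 of the 15 fits without 1 A array. None was called at 48 h, where 4 had an unadjusted p under 0.05 in limma. In 10 of 41 alternatives 1 coregulator was called lower there, and with array weights or the covariate 2 were.

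**Figure D5:**
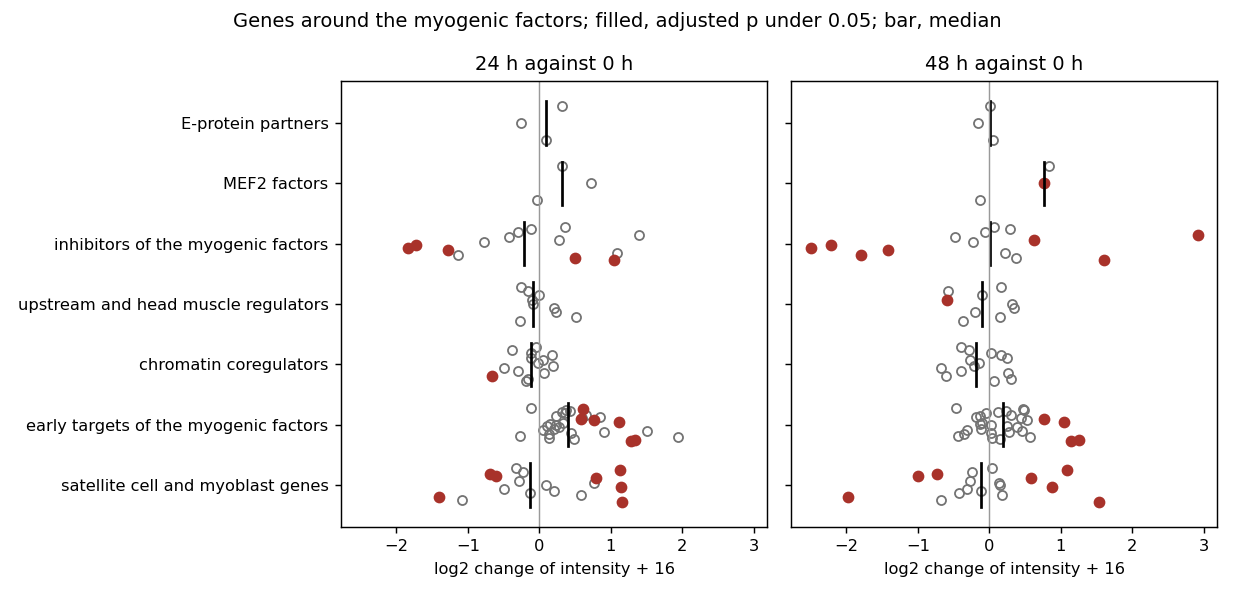
Log2 change of intensity plus 16 (horizontal) of the tested genes of 7 lists around the myogenic factors, at 24 h against 0 h and at 48 h against 0 h; each circle is a gene by its brightest probe set, filled where the adjusted p was under 0.05 in limma, and the bar is the list's median. The early targets lie to the right at 24 h with a median of 0.41, and the inhibitors spread to both sides.

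Some markers of other cell types passed at 48 h, and several of them also at 24 h, when Myod1 did not. Of the smooth muscle and pericyte markers 8 of 10 were tested and 5 rose at 24 h and 4 at 48 h, among them Pdgfrb (1.29 ± 0.18 at 48 h) and Tagln (1.10 ± 0.25). The count at 48 h was 1 without 0 h replicate 1 and 2 without 0 h replicate 2 or 48 h replicate 3, runs in which the Tagln call was lost (limma adjusted p up to 0.084), and a second Pdgfrb probe set (0.81, adjusted p = 0.0967) did not pass. Their summed A array intensity ranged from 16556.0 to 19029.7 at 48 h against 12953.6 to 19494.4 at 0 h, and the defining Myh11 and Cnn1 averaged 13.6 and 15.8 over the arrays, below the filter. Fibroblast markers summed on the A arrays to 4022.6 to 4378.4 at 48 h against 2664.7 to 3091.2 at 0 h, most of it Col3a1, which rose by 0.57 ± 0.12 at 48 h (limma adjusted p = 0.0589 with median scaling). A second Col3a1 probe set changed by 0.54 and did not pass (limma adjusted p = 0.212). Col3a1 was the 1 called of 4 tested of 10, and the only 1 of them with a positive change at 48 h (list median -0.10). Dcn and Pdgfra averaged 16.7 and 55.5 on the A arrays. Their brighter B array probe sets, which were tested, changed by -0.16 and -0.21 (limma adjusted p = 0.963 and 0.97). Without the leg muscle array these changes were -0.29 and -0.99, and neither passed. Neuron markers summed to 597.4 to 750.1 at 48 h against 936.7 to 1039.4 at 0 h, with Nefm and Nefl lower and Tubb3 higher among 6 tested of 8 (Nefl on the B arrays by -1.28, and by -1.22 without the leg muscle array, limma adjusted p = 0.0449), and Snap25 averaged 5.56. No endothelial, Schwann cell, macrophage or adipocyte marker was called at 24 or 48 h in limma, of 1, 2, 3 and 1 tested. Among those 7, 1 Schwann cell marker had an unadjusted p under 0.05 at 24 h and none at 48 h. The part of these cells in the change of Myod1 was not tested.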

How the data were processed

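Total RNA was measured on 30 arrays. The labels name the standard protocol of Affymetrix, and for the software that summarised the probes the entry is: not given in the sources used here. Each deposited value is a linear intensity of a probe set, used as deposited. Column medians of the deposited intensities ranged from 154.7 to 181.5 on the A and from 272.8 to 297.7 on the B arrays, and A and B were fitted apart. Arrays of the same time correlated across probe sets at r between 0.964 and 0.982 on the A and 0.890 and 0.927 on the B type, and no pair was identical.

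Symbols came from the platform annotation, updated through the mouse reference gene table. A single symbol was held by 20393 A and 14674 B probe sets, several by 691 and 245, and none by 1606 and 7656. The reference table matched 20364 and 14499 of them.

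Controls were removed, as were probe sets whose mean lay below the 40th percentile of their type (101.0 for A, 199.6 for B), and 27084 were tested. limma 3.58.1 in R 4.3.3 was fitted to log2(intensity + 16) with 1 mean per time and an intensity trend, with the Benjamini-Hochberg adjustment over all probe sets of a type and a threshold of 0.05. Myf5 and Myf6 came from the same fit without the filter. For a list, the brightest probe set of each gene was used. Pairs of members were compared with exact permutation tests. Scripts were tested on simulated data. Alternatives were other pseudocounts, filters and normalizations, the replicate number as a block, no trend, fits of just the times in a comparison, and leaving out each array.

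The named genes were all members, the E-protein and MEF2 lists, up to 4 genes per list with the largest F-statistic, and the 4 genes most like each member. The members and lists were chosen with earlier results of these data known. Figures were drawn with matplotlib 3.10.9.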

Additional observations from a re-analysis of the deposited data

How the results depend on the processing

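The fall of Myod1 at 48 h against 0 h lost its call in 4 of 26 alternatives, each with 1 array left out. The 26 were 11 settings and 15 with 1 array left out. Its direction was the same in all 26, but most of these could not test it. The log2 change was bound to stay at -0.73 without an array of another time. The same held for other filters, no trend, the replicate block, the covariate and a fit of these times alone. Leaving out a 0 h or 48 h array could change only its size, since all 48 h arrays lay below all 0 h arrays. The count of called members at 48 h against 0 h, 1 of 7, ranged from 0 to 1 with 1 array left out. It was 2 with array weights and 2 with the covariate for the arrays' main deviation. For 48 h against 24 h the count, 0, was 2 with array weights. The F-test count, 0, was 2 with array weights and 3 with the covariate, and ranged from 0 to 1 without single arrays, with 1 in the runs without A array 0 h replicate 3 or 4 h replicate 2. The count of pairs, 0 of 15, ranged from 0 to 4. The cause of these differences was not tested. With the replicate number as a block, 1 member passed at 48 h against 0 h (Myod1, -0.73, limma adjusted p = 0.0193). Same-numbered A arrays of different times had deviations correlating at r between -0.36 and 0.42, with 10 of 30 over 0.1 and 6 of 15 arrays closest to their own number. On the B type 1 of 30 was over 0.1. The labels state no pairing, and these values cannot decide whether equal numbers share a culture. The main fit treated the arrays as unpaired. Median scaling moved single arrays by -0.11 to 0.12 on the A and by -0.07 to 0.06 on the B type (log2). The B array probe set of Myod1 and the A array probe set of Pax7 gave no value under the filter at the 60th percentile. With 3 arrays per time, Myf5 and Myf6 near the pseudocount and only 1 bright probe set for Myod1, changes of dim members are poorly limited.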
